A study of Polypedilum vanderplanki with 24 samples.

Results

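The genes described here are those of the Pv11 cell line whose promoters hold a predicted heat shock element (HSE) of the short kind alone. They were taken as the genes with a match to the yeast HSF1 motif MA0319.1 in the deposited table and no match to the 4 longer motifs, which are MA0770.1, MA0771.1 and both versions of MA0486 (MA0486.1 and MA0486.2). This rule uses promoter sequence and no expression value. It gave 1503 of the 17782 genes, and they were set against the 12881 genes with no predicted HSE. A further 3027 genes had longer motifs only, and 371 genes had both kinds.

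Pv11 was derived from embryos of the sleeping chironomid *Polypedilum vanderplanki*, and its cells can survive almost complete drying after treatment with trehalose. Poly(A) RNA of 4 lines was sequenced as 24 libraries, 3 for each line and time, after 48 h of trehalose (T48) and before it (T0). The *Hsf1*-/-; *Hsf1*-HaloTag/BlaR line (HSF1-rescue cells below) carries a knockout of *Hsf1* and, at the end of the coding sequence of g7775, an inserted *Hsf1* with HaloTag and a blasticidin resistance gene. The *Hsf1*-/- HaloTag/BlaR line (control cells below) has the same knockout and the same insertion without *Hsf1*. The *Hsf1*-/- line has the knockout alone, made by inserting a fluorescent and a zeocin resistance marker, and WT is the unmodified Pv11. Each engineered line is a clone, so a property of that clone and an effect of its genotype cannot be told apart.

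Heat shock factor 1 (HSF1) is a transcription factor that binds DNA as a trimer. Each of its 3 DNA-binding domains reads one nGAAn unit, and a canonical HSE is a row of such units in alternating orientation, so that GAA and its complement TTC follow each other. HSF1 is best known for switching on the genes of molecular chaperones under heat and other stresses that unfold proteins.

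The sequences that passed the search are shown because they set what a short match is. The motif is 8 bp wide and only 4 words reached the search threshold (p under 0.0001), given here 5′ to 3′ on the strand of the gene with GAA units in capitals.
Short word A: atgGAAca
Short word B: atgGAAcg
Short word C: atgGAAct
Short word D: atgGAAga
The highest-scoring match of each longer motif is shown beside them, with GAA and TTC units in capitals. It was one sequence for all but MA0486.1.
MA0486.1 (g6619): cTTCtgGAAgaTTCt
The other 3 longer motifs (g13510): TTCtaGAAcaTTC
The g6619 match lies at chr2:17827193-17827207 on the plus strand, 369 bp before the start site, and the g13510 match at chr3:30584868-30584880 on the plus strand, 17 bp after it (coordinates of the deposited table, assembly Pv_5.2). Each short word holds 1 GAA unit. The longer matches shown hold 3 units, and 5810 of the 7408 longer-motif matches, counted motif by motif, held at least 2 (78.4%).

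Word D was the most frequent, with 665 of the 1607 short sites (41.4%), a FIMO score of 11.4 and a p of 6.83e-05. Word A, with the highest score of 13.0 and a p of 1.79e-05, made up 478 sites. Word C made up 337 sites (score 11.5) and word B 127 sites (score 12.2). Over all regions searched, the q of a short match, which allows for the number of places examined, lay between 0.629 and 0.723. The q of the longer motifs began lower, at 0.239 for MA0486.2, and reached 1.00 for MA0486.1. Most members had a single site (1408 genes), while 87 genes had 2, 7 genes had 3 and 1 gene had 4. Neighbouring sites in one gene stood a median of 212 bp apart, and 3 of the 104 distances were 20 bp or less. The regions of 56 members overlapped those of another member and shared a site with it, 30 such sites in all. All 1607 sites are listed on the strand of their gene, as are the longer matches, so sites on the opposite strand were not analysed here. The classes of genes, that with no HSE among them, therefore rest on matches listed on the strand of the gene.

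The short sites were placed unevenly around the start site, most of them on its downstream side. Only 387 of the 1607 sites (24.1%) lay wholly upstream of the start site, against 47.5% of the 7408 longer-motif matches. A total of 1205 short sites lay inside the gene model, or 75% of them, against 47.1% of the longer matches. A single base stood out. All 4 words open with ATG, the triplet of the start codon, and 183 short sites (11.4%) began at the first base of their gene model, against 1 longer match. At the annotated or CAGE-based start site itself, 109 short sites began, and no other position held more than 9. Word D contributed 113 of the 183 sites, which was 17.0% of all word D sites, while the share was 7.53% for word A, 8.66% for word B and 6.82% for word C. Short sites of the 371 genes that also had a longer motif were distributed alike, with 24.9% upstream and 12.2% at the first base of the model.

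**Figure D1:**
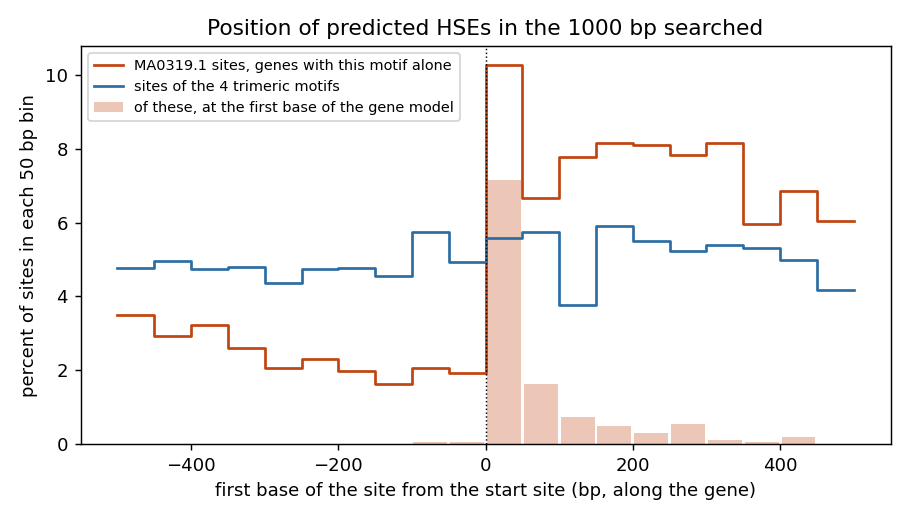
Position of the first base of each predicted HSE from the start site, in bp along the gene, as the percent of sites in each 50 bp bin. The red line shows the 1607 short sites of genes with MA0319.1 alone, the red bars those 183 of them that begin at the first base of the gene model, and the blue line the 7408 longer-motif matches. The short sites are sparse before the start site and peak just after it, whereas the longer matches run nearly level.

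The members were otherwise much like the remaining genes. Their gene models had a median length of 1403 bp, against 1571 bp for genes with no HSE. Of the members, 3.79% had more than 1 region searched, against 3.14% of genes with no HSE. They were spread over the 4 chromosomes with 362, 396, 448 and 281 genes, and 18.7% were on chromosome 4, against 17.5% of genes with no HSE. GO terms were attached to 60.4% of members, against 59.6% of genes with no HSE.

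Expression was measured as TPM, a level scaled by gene length and to a fixed total per library. The deposited values are the authors' means of each group, and the values of single libraries in the study's supplement were not used here, so no error is given and no test between groups was run. A difference is therefore described by its size only. The gene g3611, annotated as a heat shock transcription factor, has longer motifs alone. It was listed at 0.307 TPM or less in every group, with 0.139 TPM in HSF1-rescue and 0.197 TPM in control cells at T48. The paper found HSF1 protein in HSF1-rescue cells by western blot. Whether g3611 is the targeted *Hsf1* was not established, so its level does not check the genotypes. Of the members, 1162 were above 0 TPM in some group and 730 reached 1 TPM in at least 1 group (48.6%), against 49.7% of genes with no HSE and 50.4% of all genes. The other 341 members were listed at 0 in every group. Among the 730, the median level at T48 was 15.2 TPM in HSF1-rescue cells, 18.3 TPM in control cells, 18.4 TPM in *Hsf1*-/- cells and 18.3 TPM in WT. At T0 it was 13.7, 14.6, 14.8 and 11.4 TPM in the same order of lines. Genes with no HSE had medians of 13.6, 17.7, 17.4 and 16.2 TPM at T48.

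The comparison of HSF1-rescue with control cells at T48 shows which genes differ with the inserted *Hsf1* when the cells are in trehalose. That *Hsf1* is expressed from the g7775 locus, and the paper reports that HSF1-rescue and WT profiles differed widely at both times. Dependence on *Hsf1* in WT cannot be told apart here from an effect of the inserted gene or of the clone. With the short motif alone, the genes were placed almost as those without any HSE. A gene was compared where either group had at least 1 TPM, and the difference was taken on the log2(TPM + 1) scale, which understates changes of low genes. Of the 687 members compared, 37 (5.39%) were at least 2-fold higher in HSF1-rescue cells and 102 (14.8%) at least 2-fold lower. Over all 8454 genes compared the shares were 5.83% higher and 14.2% lower, and over the 6025 genes with no HSE they were 5.23% and 15.0%. The median difference was -0.33 for members, -0.36 for genes with no HSE and -0.34 for all genes. Genes with longer motifs alone stood at -0.26, with 8.0% higher and 11.3% lower. The members therefore had about the background share of genes past 2-fold in both directions. The medians were negative in all of these classes. Scaling by the median of ratios brought the median of all genes to 0.00, as it does by its construction. Whether the shift lies in the cells or in the scale of TPM was not tested. On the scaled values 62 members (9.10%) were at least 2-fold higher and 38 (5.58%) lower. Over all genes the numbers were 806 (9.64%) and 587 (7.02%), and the shares of genes with no HSE were 8.67% and 7.45%. The balance of higher and lower genes thus turned with the scaling among members and over all genes.

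**Figure D2:**
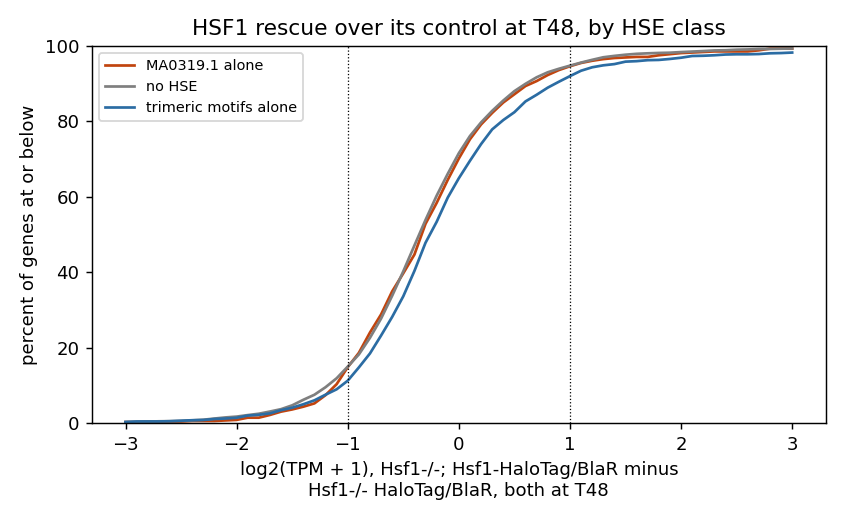
Cumulative percent of genes (vertical axis) at or below each difference in log2(TPM + 1) between HSF1-rescue and control cells at T48 (horizontal axis), for genes with MA0319.1 alone (red), with longer motifs alone (blue) and with no HSE (grey). Dotted lines mark 2-fold. The red and grey curves nearly coincide, with medians of -0.33 and -0.36, and the blue curve is to their right with a median of -0.26.

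At T0, before trehalose, the same pair of lines differed less. Of 618 members, 20 (3.24%) were at least 2-fold higher in HSF1-rescue cells and 11 (1.78%) lower, with a background of 4.57% and 2.41% over all genes. The median difference was -0.12 for members and -0.10 for genes with no HSE.

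Trehalose treatment was examined in each line as T48 over T0. In HSF1-rescue cells, 74 of 645 members (11.5%) were at least 2-fold higher at T48 and 29 (4.5%) lower, with 11.5% and 6.7% over all genes. In control cells the numbers were 160 (23.8%) and 43 (6.40%) of 672 members, with 24.5% and 8.25% over all genes. In *Hsf1*-/- cells they were 162 (24.2%) and 40 (5.97%) of 670 members, with 22.7% and 8.26% over all genes. WT cells had 197 (28.3%) and 27 (3.88%) of 696 members, with 25.7% and 4.61% over all genes. Of the 4 lines, WT had the widest gap between members and genes with no HSE, with medians of 0.61 and 0.51. In the other lines the medians were 0.09 and 0.07 (HSF1-rescue), 0.39 and 0.35 (control) and 0.32 and 0.30 (*Hsf1*-/-). Without replicate values it was not tested whether a gap of 0.10 exceeds the spread between libraries. The median of all genes was itself 0.53 in WT, 0.35 in control, 0.30 in *Hsf1*-/- and 0.08 in HSF1-rescue cells. After scaling, 70 members (10.8%) were higher and 41 (6.31%) lower in HSF1-rescue cells, with 10.5% and 7.95% over all genes. The scaled numbers were 98 (14.8%) and 81 (12.2%) in control cells, with 15.5% and 14.0% over all genes. In *Hsf1*-/- cells they were 106 (16.0%) and 83 (12.6%), with 15.5% and 14.0% over all genes, and in WT 93 (13.5%) and 67 (9.75%), with 12.6% and 11.0% over all genes.

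The *Hsf1*-/- line was also set against WT. At T48, 26 of 699 members (3.72%) were at least 2-fold higher in *Hsf1*-/- cells and 37 (5.29%) lower, with 4.32% and 4.84% over all genes. At T0, 91 of 623 members (14.6%) were higher and 47 (7.54%) lower, with 13.4% and 5.59% over all genes. The members' medians were 0.04 at T48 and 0.31 at T0, against 0.08 and 0.29 for genes with no HSE. After scaling, 54 members (8.53%) were higher and 66 (10.4%) lower at T0, with 570 (7.16%) and 717 (9.01%) over all genes, so more genes were lower than higher on that scale among members and over all genes.

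**Figure D3:**
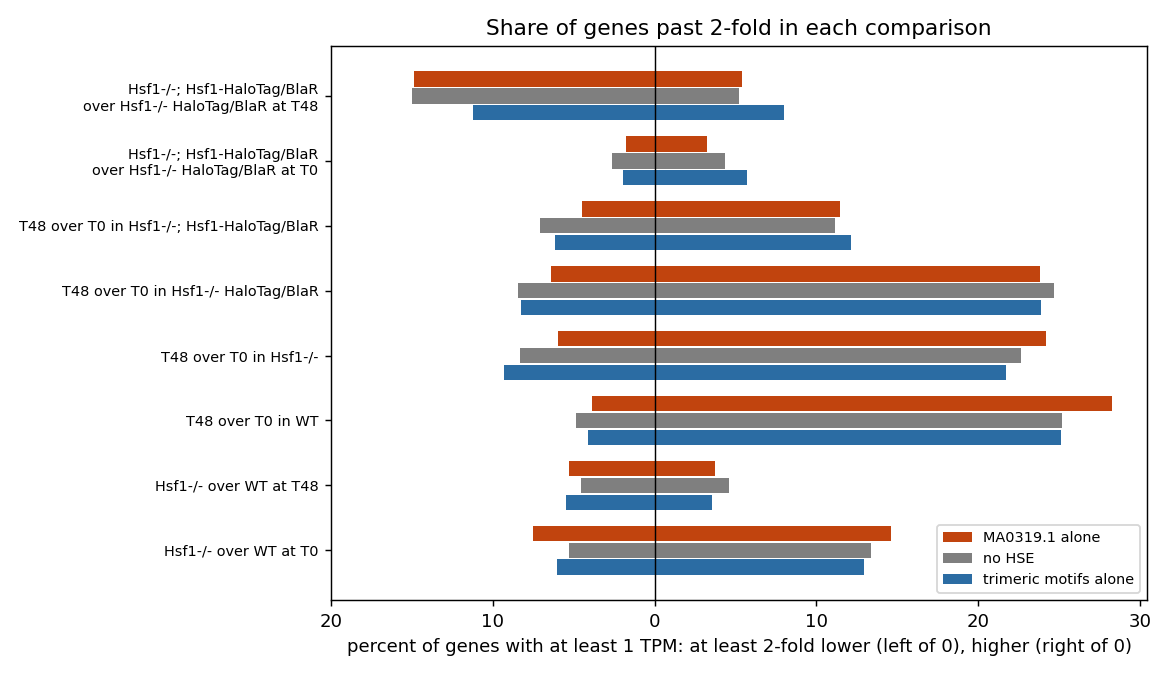
Percent of genes at least 2-fold higher (right of 0) or lower (left of 0) in the group named first, for 8 comparisons, among genes with at least 1 TPM in either group. Red bars are genes with MA0319.1 alone, grey bars genes with no HSE and blue bars genes with longer motifs alone. For genes higher at T48 in HSF1-rescue over control cells, red and grey bars end at 5.39% and 5.23% and the blue bar at 8.0%, while for genes lower in *Hsf1*-/- over WT at T0 the red and grey bars end further apart, at 7.54% and 5.27%.

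Comparisons with no library in common were also read together. Of all members compared, 28.3% were at least 2-fold higher at T48 in WT, with 25.7% over all genes. In *Hsf1*-/- cells over WT at T48, 3.72% of members were higher and 5.29% lower, with 4.32% and 4.84% over all genes. Of the 37 members higher in HSF1-rescue than in control cells at T48, 12 were also at least 2-fold higher at T48 than at T0 in WT, which is 32.4% of the 37 and 6.09% of the 197. For genes with no HSE the shares were 33.0% of 315 and 6.79% of 1532, and for longer motifs alone 44.7% of 123 and 14.2% of 388. Of the same 37 members, 9 were at least 2-fold lower in *Hsf1*-/- cells than in WT at T48 (24.3% of 37, and 24.3% of the 37 members lower there). The shares were 19.7% of 315 and 22.3% of 278 for genes with no HSE, and 33.3% of 123 and 48.2% of 85 for longer motifs alone. Of the 102 members lower in HSF1-rescue cells, 43 were higher at T48 in WT (42.2% of 102, 21.8% of 197). The shares were 35.4% of 903 and 20.9% of 1532 for genes with no HSE, and 32.4% of 173 and 14.4% of 388 for longer motifs alone. Of the same 102 members, 3 were at least 2-fold higher in *Hsf1*-/- cells than in WT at T48 (2.94% of 102, 11.5% of 26). This share was lower than that of genes with no HSE (11.2% of 903, 35.7% of 283) and of longer motifs alone (10.4% of 173, 32.7% of 55), a difference that was not tested. The authors' assignment of genes to 4 expression clusters, made from these same libraries, put 101 members (6.72%) in cluster 4, against 6.69% of genes with no HSE and 10.5% of genes with longer motifs alone.

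Members were next split by where their sites lay. The 183 genes with a site at the first base of the gene model stood apart in how few were higher in HSF1-rescue cells, a difference that was not tested. At T48, 1 of 102 such genes compared was at least 2-fold higher in HSF1-rescue than in control cells and 18 were lower, with a median of -0.49. Over all genes the shares were 5.83% higher and 14.2% lower. These sets were counted on the deposited values only, without scaling. In *Hsf1*-/- cells over WT at T48, 2 of 101 first-base genes were higher and 1 lower, with 4.32% and 4.84% over all genes. In HSF1-rescue over control cells at T48, genes with a site wholly upstream had 10 higher and 29 lower of 184 (5.43% and 15.8%), with a median of -0.36. Genes with a site inside the model past its first base had 28 higher and 56 lower of 405 (6.91% and 13.8%), with a median of -0.31. A gene with several sites can stand in more than one of these sets. In WT at T48 over T0, 20 of 101 first-base genes were at least 2-fold higher (19.8%), as were 58 of 186 upstream genes (31.2%) and 128 of 412 genes with a site inside the model (31.1%). Over all genes this share was 25.7%. For T48 over T0, the medians of upstream genes were 0.15 in HSF1-rescue, 0.52 in control, 0.43 in *Hsf1*-/- and 0.62 in WT cells. In the same order of lines, first-base genes had medians of 0.20, 0.51, 0.30 and 0.64. Genes with a site inside the model had 0.07, 0.36, 0.26 and 0.63, and genes with no HSE 0.07, 0.35, 0.30 and 0.51. First-base genes thus had a smaller share past 2-fold in WT but no lower median there.

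The score of the match did not order the responses. At T48, HSF1-rescue over control cells, the share at least 2-fold higher was 4.64% of 194 genes with word A, 3.57% of 56 with word B, 5.00% of 140 with word C and 6.94% of 317 with word D. The share lower was 13.9%, 12.5%, 16.4% and 14.8% in the same order of words. Of 32 genes compared that had 2 or more sites, 5 were higher and 5 lower (15.6% each), against 4.89% and 14.8% of 655 genes with 1 site, and their medians were -0.03 and -0.33. Over all genes the shares were 5.83% and 14.2%. In *Hsf1*-/- cells over WT at T48, 2 of 31 genes with 2 or more sites were higher and 1 lower (6.45% and 3.23%), with 4.32% and 4.84% over all genes. The differences by number of sites rest on few genes and were not tested.

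**Figure D4:**
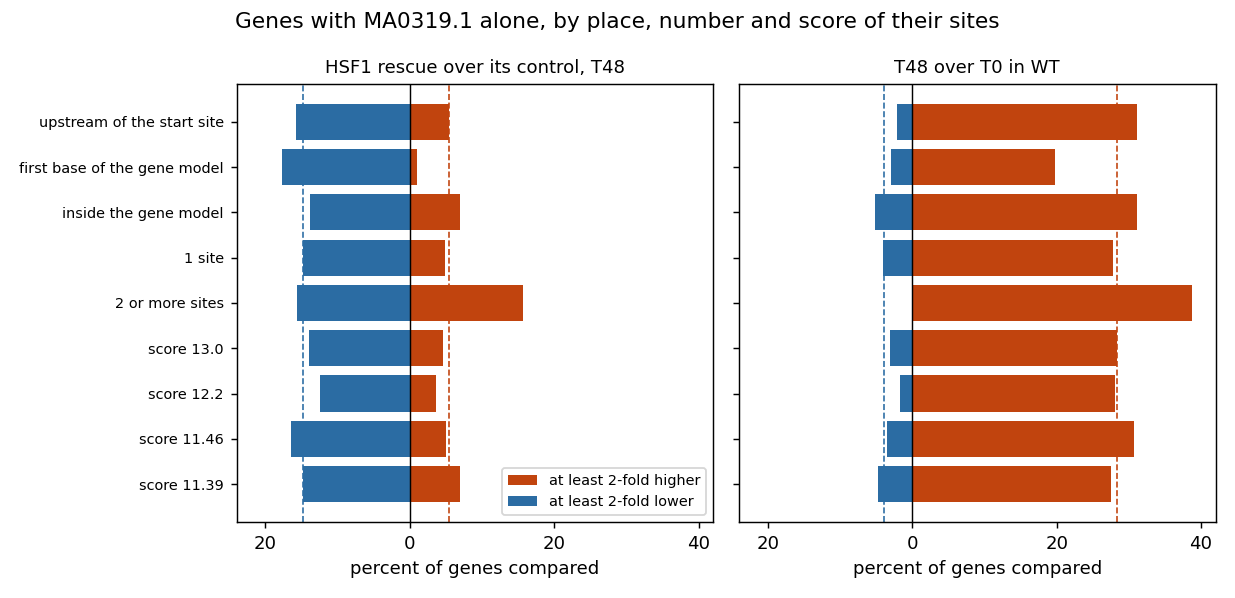
Percent of members at least 2-fold higher (red, right of 0) or lower (blue, left of 0) in HSF1-rescue over control cells at T48 (left panel) and at T48 over T0 in WT (right panel), by place, number and FIMO score of their short sites. Dashed lines mark the shares of all members compared, 5.39% higher and 14.8% lower on the left and 28.3% and 3.88% on the right. Genes with a site at the first base of the gene model have the shortest red bar in both panels, and genes with 2 or more sites, of which 32 and 31 were compared, the longest.

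A minority of members belonged to the families that Pv11 uses against drying. LEA (late embryogenesis abundant) proteins are thought to shield other proteins as water is lost, PIMTs are methyltransferases that repair damaged aspartyl residues, and LIL genes encode membrane proteins beside the *Lea* genes. Members were looked up among 129 genes of 6 families in the study's lists, matched by gene number. These lists were made with these libraries in view and are no independent evidence of a direction. The members were 5 of 27 *Lea* genes, 3 of 14 *Pimt* genes, 1 of 13 *Lil* genes and 1 of 46 *Hsp* genes, with none of 25 *Trx* or 4 trehalose metabolism genes. In HSF1-rescue over control cells at T48, 3 of the 5 *Lea* members were at least 2-fold higher, with a median of 2.64, against 22 of all 27 *Lea* genes and 2.70. For *Pimt* it was 2 of 3 members, against 7 of all 14, and for *Lil* the 1 member, against 8 of all 13. The *Hsp* member did not pass 2-fold, and 8 of the 40 *Hsp* genes compared did. Of the *Trx* genes, which reduce disulphides, 16 of 21 compared were higher, and of the trehalose genes 2 of 4. Reads that fit more than one near-identical copy were not counted, so the levels of single family members are uncertain.

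The *Lea* gene g16177 (chr4:8438642-8440766, minus strand) had the widest difference of the 5 *Lea* members. It had 548 TPM in HSF1-rescue, 10.1 TPM in control, 18.6 TPM in *Hsf1*-/- and 42.2 TPM in WT cells at T48, against 14.3, 2.27, 2.46 and 0.736 TPM at T0. HSF1-rescue cells were thus far above the other lines at T48, by 5.63 on the log2 scale over control cells. Its site is word D, 174 bp after the start site.

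The *Lea* genes g16194 and g16207 were among the most abundant members. At T48 g16194 had 8633 TPM in HSF1-rescue, 1325 TPM in control, 1991 TPM in *Hsf1*-/- and 1535 TPM in WT cells, against 1513, 405, 891 and 812 TPM at T0. At T48 g16207 had 9150 TPM in HSF1-rescue, 1470 TPM in control, 1897 TPM in *Hsf1*-/- and 2618 TPM in WT cells, against 1741, 641, 682 and 811 TPM at T0. In both genes HSF1-rescue cells were highest at each time, by 2.70 and 2.64 on the log2 scale over control cells at T48. The site of g16194 is word C, 111 bp before the start site, and g16207 has word D 23 bp before it and word C 233 bp after it.

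The other *Lea* members were nearer to 2-fold. PvLEA5 (g16205) had the highest mean level of all members, with 14485 TPM in HSF1-rescue, 7516 TPM in control, 7744 TPM in *Hsf1*-/- and 11835 TPM in WT cells at T48, against 5442, 3015, 2778 and 5216 TPM at T0. The HSF1-rescue level was 0.95 above control cells on the log2 scale at T48, and 1.31 above after scaling. Levels of g16181 at T48 were 750.1, 516, 404 and 518 TPM in HSF1-rescue, control, *Hsf1*-/- and WT cells, a log2 difference of 0.54 between the first pair.

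Of the *Pimt* members, g16355 (chr4:9176981-9177739, plus strand) differed most. It had 528 TPM in HSF1-rescue, 38.6 TPM in control, 60.9 TPM in *Hsf1*-/- and 198 TPM in WT cells at T48, against 28.5, 3.79, 10.7 and 6.91 TPM at T0. The order of lines at T48 was HSF1-rescue, WT, *Hsf1*-/- and control, and the difference of HSF1-rescue over control cells was 3.74 on the log2 scale. Its word D site is 473 bp before the start site, near the edge of the region searched. The *Pimt* gene g16358 had 214 TPM in HSF1-rescue, 111 TPM in control, 108 TPM in *Hsf1*-/- and 178 TPM in WT cells at T48, all far above its T0 levels of 13.1, 5.22, 6.58 and 10.1 TPM. The log2 difference for HSF1-rescue over control cells was 0.95 there and 1.10 for the third *Pimt* member, g16347.

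The *Lil* member g16186 was high after trehalose in every line. It had 635 TPM in HSF1-rescue, 310 TPM in control, 310 TPM in *Hsf1*-/- and 393 TPM in WT cells at T48, against 42.2, 22.4, 34.2 and 14.1 TPM at T0. The single *Hsp* member, g13138, which carries an Hsp20 (small chaperone) domain, stayed between 3.17 and 11.3 TPM in all 8 groups.

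**Figure D5:**
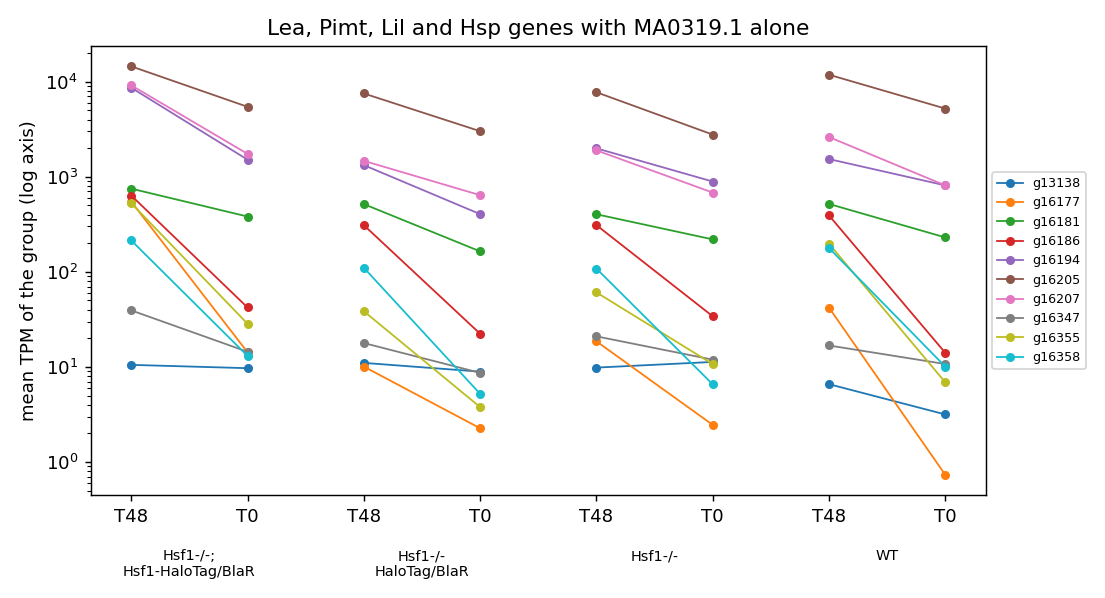
Mean TPM (log axis) of the 10 *Lea*, *Pimt*, *Lil* and *Hsp* genes with MA0319.1 alone, in each line at T48 and T0. Each point is the authors' mean of a group, and lines join the 2 times of one cell line. The *Lea* gene g16177 stands at 548 TPM in HSF1-rescue cells at T48 and at 10.1 TPM in control cells, while the *Hsp* gene g13138 is near 10 TPM in most groups.

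Among members with at least 10 TPM in one of the 2 groups, the 8 furthest above control cells in HSF1-rescue cells at T48 were g9174, g16177, g4855, g16355, g1624, g16194, g17234 and g16207. Their log2 differences lay between 5.83 and 2.64, and 4 of them are the *Lea* and *Pimt* genes above. The gene g9174, for which no protein domain is listed, had 69.4 TPM in HSF1-rescue, 0.234 TPM in control, 3.44 TPM in *Hsf1*-/- and 1.02 TPM in WT cells at T48, and at most 0.148 TPM in any line at T0. At T48 the other 3 lines, WT among them, were at 3.44 TPM or less. The gene g4855 had 65.3, 1.82, 7.5 and 2.82 TPM at T48 in the same order of lines, again with HSF1-rescue cells highest, and carries word D 191 bp before and word B 260 bp after the start site.

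The gene g1624, with the zinc-binding domain of alcohol dehydrogenases, followed the presence of *Hsf1* at both times. It had 13.8 TPM in HSF1-rescue, 0.479 TPM in control, 1.71 TPM in *Hsf1*-/- and 15.6 TPM in WT cells at T48, against 9.99, 0.502, 1.17 and 3.74 TPM at T0. HSF1-rescue and WT cells were above the 2 lines without *Hsf1* at each time. Whether this reflects *Hsf1* or the clones was not tested. Its site is the highest-scoring word A, 271 bp before the start site (chr1:12202158-12202165, plus strand). The gene g17234, with no domain listed, had 19.5 TPM in HSF1-rescue and 2.27 TPM in control cells at T48, against 26.4 and 18.1 TPM at T0.

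The 8 members furthest below control cells were g9185, g5318, g1184, g807, g12229, g1696, g10531 and g509, with log2 differences between -3.32 and -1.76. After scaling, the smallest of these differences was -1.42, for g509. The gene g9185, with a methyltransferase domain, had 21.2 TPM in HSF1-rescue, 220 TPM in control, 76.2 TPM in *Hsf1*-/- and 90.5 TPM in WT cells at T48, against 8.22, 11.4, 7.29 and 74.5 TPM at T0. Its word D site begins at the first base of the gene model, as does that of g509, which has an ecdysteroid kinase domain. The gene g5318, of the PAP2 phosphatase family, had 37.1, 277, 199 and 122 TPM in HSF1-rescue, control, *Hsf1*-/- and WT cells at T48.

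Others in this set have known relatives. The protein of g807 resembles argonaute 3 (Piwi and PAZ domains), a part of the small-RNA pathway that silences transposons in flies. It had 2.44 TPM in HSF1-rescue, 12.7 TPM in control, 10.6 TPM in *Hsf1*-/- and 8.61 TPM in WT cells at T48, against at most 1.89 TPM in any line at T0. The gene g1184, with PAS domains that often serve as sensors, had 99.6, 564, 322 and 388 TPM at T48 in the same order of lines. HSF1-rescue cells were the lowest line at T48 in each of these genes. The cytochrome P450 gene g1696, of a family that oxidises small molecules, had 17.4 TPM in HSF1-rescue cells at T48, against 68.8 TPM in control cells. The nucleoside hydrolase gene g12229 had 11 TPM in HSF1-rescue cells at T48, against 46.1 TPM in control cells.

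The response of WT cells to trehalose named other members. The 4 furthest above T0 at T48 were g16199, g12762, g16186 and g16355, with log2 differences of 6.93, 5.88, 4.70 and 4.65. The leucine-rich repeat gene g16199 had 138 TPM in WT cells at T48, against 0.140 TPM at T0, and reached 38.8 TPM in HSF1-rescue, 7.67 TPM in control and 12.2 TPM in *Hsf1*-/- cells at T48. The gene g12762, annotated as a coactosin-like protein, of a family that binds actin filaments, reached 583 TPM in HSF1-rescue, 197 TPM in control, 564 TPM in *Hsf1*-/- and 146 TPM in WT cells at T48, against at most 11.4 TPM in any line at T0.

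The 4 furthest below T0 in WT were g6089, g682, g16772 and g17234, with log2 differences of -6.03, -3.71, -2.26 and -2.17. The globin gene g6089, whose product binds oxygen, had 14.7 TPM in HSF1-rescue, 8.89 TPM in control, 7.36 TPM in *Hsf1*-/- and 3.41 TPM in WT cells at T48, against 349, 427, 218 and 287 TPM at T0. It was thus far lower after trehalose in every line, with and without *Hsf1*. The leucine-rich repeat gene g682 had 28.9, 5.30, 6.60 and 2.74 TPM at T48, against 102, 181, 126 and 47.9 TPM at T0, in the same order of lines. For g16772, with no domain listed, WT cells had 3.00 TPM at T48, against 18.2 TPM at T0.

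Besides PvLEA5, the members of highest mean level serve general functions. The genes g14133, g11475 and g14071 encode ribosomal proteins (of the S2, L36e and L26 families) and g2687 encodes alpha-tubulin, the building block of microtubules. At T48, g14133 had 2818 TPM in HSF1-rescue, 4368 TPM in control, 4133 TPM in *Hsf1*-/- and 3992 TPM in WT cells, against 6593, 8227, 7127 and 8322 TPM at T0. On the log2 scale HSF1-rescue minus control cells at T48 was -0.63 for g14133, -0.49 for g11475, -0.29 for g14071 and 0.57 for g2687. After scaling they were -0.27, -0.13, 0.07 and 0.94, so that g14071 changed sign.

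Of the 8 members with 3 or more sites, 1 reached 1 TPM in some group, against 48.6% of all members, and 3 were listed at 0 in every group. The genes g3312, with 4 sites, and g27 and g4683, with 3 each, were those at 0, and g9961 reached 0.0141 TPM in 1 group. The WD-repeat gene g12152, with 3 sites of which one begins at the first base of its model, had 21.0 TPM in HSF1-rescue, 40.5 TPM in control, 29.6 TPM in *Hsf1*-/- and 34.9 TPM in WT cells at T48.

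The most abundant genes with a site at the first base were g8670, with protein farnesyltransferase similarity, g3726 (AN1 and A20 zinc fingers), g5482 (a Tim17 family part of the mitochondrial import machinery), g4259 (a serine/threonine phosphatase) and g538. The gene g5482 had 190 TPM in HSF1-rescue, 437 TPM in control, 396 TPM in *Hsf1*-/- and 351 TPM in WT cells at T48, against 220, 218, 245 and 318 TPM at T0. HSF1-rescue cells had the lowest level at T48, by 1.20 below control cells on the log2 scale. The differences were -0.69 for g8670, -0.75 for g3726, -0.88 for g4259 and -0.25 for g538, all within 2-fold.

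One member is annotated as a heat shock factor binding protein (g8400, chr2:30155053-30155623, minus strand), and was chosen after its values were seen. In mammals such a protein binds the trimerisation domain of HSF1 and restrains it. The gene had 80.4 TPM in HSF1-rescue, 73.8 TPM in control, 80.9 TPM in *Hsf1*-/- and 63.6 TPM in WT cells at T48, against 44.5, 41.6, 58.7 and 39.5 TPM at T0. Every line was higher at T48, within 2-fold, and the log2 difference between HSF1-rescue and control cells at T48 was 0.12. Its word A site begins at the first base of the gene model, 112 bp after the start site.

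Of the GO groups tied to the known role of HSF1, protein folding held 4 members of 45 genes and unfolded protein binding 1 of 31. Protein folding made up 0.266% of members, near its 0.253% of all genes, and 0.155% of genes with no HSE. Between HSF1-rescue and control cells at T48, 3 folding members and 1 unfolded protein binding member were compared, and none passed 2-fold. Of the whole groups, 3 genes were higher and 1 lower in each, of 42 compared (7.14% and 2.38%) and of 29 compared (10.3% and 3.45%). So few members do not tell them from the whole groups. In WT, 2 of the 4 folding members were at least 2-fold higher at T48, against 9 of 42 in the whole group. Cell redox homeostasis had 1 member, which was not expressed at 1 TPM, while 19 of the 50 genes compared in that group were higher in HSF1-rescue cells.

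Larger groups were translation with 11 members and structural constituents of the ribosome with 12. In HSF1-rescue over control cells at T48 each had 1 member lower and none higher, of 11 compared, with a median of -0.47 in both. The whole groups had medians of -0.36 and -0.35, with 7.56% of 119 and 6.56% of 122 genes lower. Members of both groups gave the same counts and medians in all 8 comparisons, so the groups are not separate results. Oxidoreductase activity held 28 members (1.86%, against 1.21% of genes with no HSE and 1.30% of all genes). Of 15 compared, 1 was higher and 2 lower, with 5.84% and 13.9% of the 137 compared in the whole group. In WT, 7 were higher at T48 and 1 lower of 17 compared, with 17.1% and 7.14% in the whole group of 140. DNA repair held 12 members (0.798%, against 0.404% of genes with no HSE and 0.489% of all genes). Of 6 compared, 1 was lower in HSF1-rescue cells, with 17.5% of 57 in the whole group. Proteolysis held 59, with 1 higher and 3 lower of 13 compared, and 6.21% and 17.9% of 145 in the whole group. Protein phosphorylation held 18 with 1 of 10 lower, and 11.5% of 174 lower in the whole group. Transmembrane transport held 28 with none of 5 past 2-fold, and 7.30% higher and 15.3% lower of 137 in the whole group. Transcription factor activity (10 members, 0.665% against 0.994%), nucleosome (5, 0.333% against 0.644%) and signal transduction (6, 0.399% against 0.893%) made up smaller shares of members than of genes with no HSE. Over all genes their shares were 0.917%, 0.579% and 0.759%. In HSF1-rescue over control cells at T48, 1 of 2 signal transduction members was lower, with 7.14% higher and 7.14% lower of 84 in the whole group. None of 4 transcription factor members was past 2-fold, with 5.06% higher and 15.2% lower of 79 in the whole group. None of 2 nucleosome members was, with 2.74% higher and 8.22% lower of 73. The shares were not tested and rest on few genes.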

How the data were processed

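One deposited table was used. Per the labels and the study's methods, the authors aligned poly(A) RNA reads to assembly Pv_5.2 with HISAT2, sorted them with SAMtools 1.9, marked duplicates with Picard, counted reads per gene with HTSeq 0.6.0 and converted the counts to TPM. They deposited the mean TPM of each of the 8 groups, and the values of single libraries and their read totals in the study's supplement were not used here, so no SD is given and no test was run. The authors used edgeR for their own calls and clusters.

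The authors searched 1000 bp around each start site, annotated or from CAGE, with FIMO, and deposited the score, p-value and q-value of each match. MA0319.1 stands in the table beside the 4 motifs that the methods name. The table has 25248 rows and repeats genes, and each gene, and each site of a gene, was taken once. Site coordinates are 1-based. Of 17576 gene models on the 4 chromosomes, 17569 had the same start and end in the GenBank annotation of Pv_5.2 once the numbers of chromosomes 1 and 3 were exchanged. The numbers printed are those of the deposited table.

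Genes with at least 1 TPM in either group were compared as the difference of log2(TPM + 1), and those past 2-fold were counted with Python 3.11.15, pandas 2.3.3 and numpy 2.4.6. The counting was tested on simulated data. Alternatives were a pseudocount of 0.1, other minima, median-of-ratios scaling (8873 genes above 0 in all groups), TPM without the 10 most abundant genes, and subsets of members. Named genes were, among members, the 8 highest and 8 lowest for HSF1-rescue over control cells at T48 and the 4 highest and 4 lowest for T48 over T0 in WT (at least 10 TPM), the 5 of highest mean TPM, 5 with most sites (of 8 with 3 or more), those in the study's 6 families, and the 5 first-base genes of highest mean TPM. None of the 4 genes tested by ChIP in the study was a member. Members, 13 GO groups and family lists were chosen with earlier results of these data known.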

Additional observations from a re-analysis of the deposited data

How the results depend on the processing

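No paired analysis was made and no replicate was left out, because only group means were used and the result comes from no test. The values of single libraries in the study's supplement were not used, so the spread between replicates was not examined. The members' median minus that of genes with no HSE stayed between -0.02 and 0.04 over 9 alternatives for HSF1-rescue over control cells at T48, and between -0.03 and -0.01 at T0. For T48 over T0 it ran from 0.05 to 0.14 in WT (0.10 as reported) and from 0.01 to 0.08 in HSF1-rescue cells. It moved by more than 0.1 in 2 cases, both with members whose sites lie upstream of the start site, to 0.17 in control and 0.13 in *Hsf1*-/- cells, and the cause was not tested. For *Hsf1*-/- over WT it stayed between -0.05 and -0.01 at T48 and between -0.08 and 0.03 at T0. The 37 members at least 2-fold higher and 102 lower in HSF1-rescue over control cells at T48 became 62 and 38 after median-of-ratios scaling, 9 and 27 with the highest-scoring word only, and 10 and 29 with upstream sites only. The last 2 settings hold fewer genes (467 and 374 members), and their percentages stayed near the reported ones. None of the named genes past 2-fold changed sign under the 3 alternatives run for them, while scaling moved 45 of 49 of their values by 0.1 or more.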

Other observations

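A stretch of chromosome 4 from g16177 to g16207 (chr4:8438642-8528197, 89.6 kb), chosen after the values were seen as the span of the *Lea* members, holds 31 genes, of which 7 have MA0319.1 alone, 16 longer motifs alone, 2 both and 6 no HSE. In HSF1-rescue over control cells at T48, 5 of the 7, 9 of the 16 and 5 of the 6 genes with no HSE were at least 2-fold higher and none was lower. The medians were 2.20, 1.05 and 1.19 on the log2 scale. Over all genes compared, 5.83% were higher and 14.2% lower. The members that set the ends of the stretch, g16177 and g16207, are themselves among those higher, by 5.63 and 2.64. Their choice raises the members' count. Genes at least 2-fold higher were thus found here with and without a predicted HSE, and neighbouring family members are not independent of each other.

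Of the members, 5 were at least 2-fold higher in *Hsf1*-/- cells than in WT at both times, namely g10531, g12762, g14371, g16007 and g682. They were 0.818% of the 611 members compared at both times, against 88 of 5465 genes with no HSE (1.61%) and 111 of all 7665 genes (1.45%), a difference that was not tested. The gene g10531 (chr3:10376958-10377236, minus strand), with no protein domain listed, had 220 TPM in HSF1-rescue, 764 TPM in control, 632 TPM in *Hsf1*-/- and 4.18 TPM in WT cells at T48, against 279, 216, 253 and 4.21 TPM at T0. All 3 engineered lines were far above WT, with and without the inserted *Hsf1*, at both times. Whether this belongs to the knockout or to the clone from which the lines were made cannot be told apart. Chance and experimental spread were not assessed for this gene, since the values are group means.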
